A study of Mus musculus with 30 samples.

Results

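Glia release proteins that carry lipids, cut or protect other proteins and shape the matrix between cells, and 10 genes for such proteins were followed here across the development of the midbrain floor plate and in adult sphere cultures. They were taken by symbol: Apoe, Clu, Ptgds, Agt, Cpe, Sparc, Sparcl1, Serpine2, Cst3 and Htra1. All 10 were found, as 10 of the 14997 genes in the table of captured cells and as 10 of the 26005 genes in the table of spheres. They were picked with their levels in these libraries already known, so their levels and differences are given as a description. Where a fit over all genes put them past its threshold, this is counted and not used as support.

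Polyadenylated RNA had been sequenced from 30 mouse libraries. The first 20 were made from midbrain floor plate cells cut out of tissue by laser capture microdissection, 4 libraries at E11, 5 at E13 and 5 at E18 (embryonic days) and 6 at P70 (a postnatal day). All 20 carry the genotype Lmx1aCreERT2; R26TRAPC, and captured cells without it were not analysed here. CreERT2 is a recombinase that tamoxifen switches on, here driven from the floor plate gene Lmx1a, so the marked cells depend on where Lmx1a was active and when tamoxifen was applied. The sources used here do not give the time of induction. R26TRAPC is not spelled out. The other 10 libraries were sphere cultures of adult cells grown in vitro, of which 5 are called MB and 5 FB, and their labels give no genotype. The design text speaks of ependymal spheres from the aqueduct of the midbrain and neurospheres from the lateral ventricle, and the labels do not spell out MB and FB. Nothing ties the libraries of a group to separate animals or cultures, so every p-value below measures only the spread between these samples, which may be technical.

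As background, most of these proteins enter the secretory pathway and act outside the cell that makes them. Apolipoprotein E (Apoe) and clusterin (Clu) are the main lipoprotein components that astrocytes release in the brain, and lipoprotein receptors on neighbouring cells take them up. Ependymal cells, which line the ventricles and the aqueduct with beating cilia, face the cerebrospinal fluid, in which cystatin C (Cst3) and prostaglandin D synthase (Ptgds) are abundant proteins. In the bulk libraries used here, fewer cells of a type and less RNA per cell cannot be told apart.

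Captured levels are given in the units of the deposited table, which is normalized in a way that is not stated. Low values of a gene step by whole multiples of an amount that depends on the gene and the library, as read counts divided by gene length and depth would, so levels of different genes are compared only in these units. Reads recovered from these steps came to 1584656 to 4557103 per captured library, and the sphere libraries held 6327198 to 9291311 counts. Whole reads could be recovered for 9 of the 10 genes, all but Sparc. A gene is listed at an age only if its mean there reached 1 unit. The floor plate label was checked against 12 markers: 12, 11, 11 and 10 were listed at the 4 ages in order, and at P70 Shh and Corin were missing. The listed markers summed to 722 to 869 units in E11 libraries, 871 to 1032 in E13, 506 to 692 in E18 and 149 to 227 in P70 libraries. From E13 to E18 Ntn1 went from 105 ± 27.1 to 317 ± 55.5 units (SD, n = 5 each). Otx2 went from 186 ± 49.8 to 38.1 ± 9.57 units and Spon1 from 183 ± 43.4 to 48.2 ± 12.3 units. Of the 11 tested for this step, 1 was higher and 6 lower (limma, adjusted p under 0.05), beside 22.4% and 25% of all genes. Lmx1a averaged 70.6 ± 8.59 units at E11 (SD, n = 4) and 4.89 ± 2.10 units at P70 (SD, n = 6). Of 16 ependymal and motile cilia markers, 9, 10, 16 and 16 were listed from E11 to P70. Their summed level was 53.3 to 436 units in E11 libraries, 91.6 to 178 in E13, 8404 to 11858 in E18 and 20830.1 to 33146 in P70 libraries. Of 15 astrocyte markers, 9, 11, 15 and 15 were listed, with sums of 149 to 194, 356 to 617, 998 to 1987 and 2203 to 2571 units at these ages. Single astrocyte markers moved both ways from E18 (n = 5) to P70 (n = 6). S100b averaged 30.1 ± 17.7 and 613 ± 97.2 units, and Slc1a3 518 ± 120 and 102 ± 25.9 units, at these 2 ages (SD).

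Promoter sequences were available for 7 of the 10 genes in RefSeq (GRCm38.p6), and those of Apoe, Agt and Serpine2 are shown. Among the 7, Agt had the fewest and Serpine2 the most CG pairs, and Apoe alone held a match to a motif searched below. Each promoter window runs from 250 bases before the annotated start of transcription to 50 bases after it, and the 250 bases before the start are printed, 5′ to 3′. In Apoe the capitals mark the only match in this window to the SOX motif ACAATG, in Serpine2 they mark CG pairs, and the Agt stretch holds no CG pair. The regions are chr7:19699189-19699438 for Apoe, chr8:124569707-124569956 for Agt and chr1:79858666-79858915 for Serpine2, all on the minus strand.
Apoe: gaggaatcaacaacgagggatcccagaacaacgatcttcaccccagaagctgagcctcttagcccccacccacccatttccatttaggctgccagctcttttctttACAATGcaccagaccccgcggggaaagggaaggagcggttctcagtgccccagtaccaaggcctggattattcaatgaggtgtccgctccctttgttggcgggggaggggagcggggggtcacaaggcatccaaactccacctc
Agt: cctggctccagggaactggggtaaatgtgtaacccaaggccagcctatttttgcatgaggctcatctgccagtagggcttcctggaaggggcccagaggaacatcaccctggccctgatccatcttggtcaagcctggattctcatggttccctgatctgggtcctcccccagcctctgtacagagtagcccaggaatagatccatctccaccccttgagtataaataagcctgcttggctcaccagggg
Serpine2: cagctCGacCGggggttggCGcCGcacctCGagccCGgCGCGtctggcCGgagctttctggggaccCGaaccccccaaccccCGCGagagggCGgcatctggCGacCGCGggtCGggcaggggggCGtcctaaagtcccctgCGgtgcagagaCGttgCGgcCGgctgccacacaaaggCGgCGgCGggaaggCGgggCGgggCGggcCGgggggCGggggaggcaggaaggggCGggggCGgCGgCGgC
In the whole window Agt had 1 CG pair and Serpine2 had 41, against a median of 7 over 32851 mouse promoters. Ptgds (2) and Sparc (4) were also below that median, and Apoe (10 at the start shown), Cst3 (13) and Htra1 (28) were above it. Of all promoters, 14.1% had as few CG pairs as Agt or fewer, and 97.0% had as few as Serpine2 or fewer. The factors named in the title of the series, Sox9 and the nuclear factor I (Nfi) family, gave the motifs that were searched on both strands: ACAATG for SOX, TTGGCA as the short NFI motif, and TTGGC, 5 bases of any kind, then GCCAA as the full NFI site. ACAATG was found at 144 bases before the start of Apoe shown above, TTGGCA at 57 bases before the start of another of the 3 Apoe promoters, and no motif in the windows of the other 6 genes. Over all promoters, 12.6% held ACAATG, 14.1% TTGGCA and 0.0365% the full site, and the short NFI motif lies inside a full site where the first of its 5 free bases is A or the last is T. These matches are letters in a window and say nothing about binding.

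The lipid and ligand carriers come first. Apoe (chr7:19696109-19699188, minus strand), the apolipoprotein of brain lipoproteins, measured 38.7, 66.3, 39.7 and 44.0 units in the E11 libraries and 159.6, 151, 129.6, 160.0 and 102 units in the E13 libraries. At E18 its libraries held 2495, 2266, 1489, 2458 and 1734 units, and at P70 they ran from 2219.7 to 3143 units with a median of 2929. Every E13 library stood above every E11 library and every E18 library above every E13 library, whereas the E18 and P70 ranges overlapped. The fitted log2 difference, on the scale of log2(units + 1), was 1.57 ± 0.19 (SE) for E13 against E11, 3.88 ± 0.18 for E18 against E13 and 0.42 ± 0.17 for P70 against E18. The E18 mean of 2088 ± 452 units (SD, n = 5) was 14.9 times the E13 mean of 140.4 ± 24.9 units (SD, n = 5). Microglia also make Apoe, and of 14 microglia and macrophage markers 12, 13, 13 and 13 were listed at E11, E13, E18 and P70. Their summed level was 136 to 273, 311 to 393, 128 to 616 and 483 to 667 units at these ages, and their part in the Apoe level was not tested. E11 replicate 2 had both the highest sum (273 units) and the highest Apoe (66.3 units) of its age. The same library had the highest sum of erythroid markers of its age, 23397 units. Pf4, at 77.6 ± 45.2 units (SD, n = 4), had the highest E11 mean of the microglia and macrophage list. E18 replicate 1 had the lowest microglia and macrophage sum (128 units) and the highest Apoe (2495 units) of its age.

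Clu (chr14:65968483-65981547, plus strand), a secreted chaperone that, like ApoE, forms lipoprotein particles, was low in the youngest cells and high in the oldest. It measured 10.7, 7.77, 8.73 and 9.91 units at E11, then 78.2, 35.8, 73.6, 63.0 and 63.0 units at E13. The E18 libraries held 657, 502, 395, 501 and 356 units, and those at P70 ran from 1994 to 3956 units with a median of 2898. No library of one age reached the range of a neighbouring age, so Clu was higher at each later age with ranges apart. On the log2 scale the difference was 2.59 ± 0.23 (SE) for E13 against E11, 2.94 ± 0.22 for E18 against E13 and 2.57 ± 0.21 for P70 against E18. The P70 mean was 314 times the E11 mean, the widest span of the 10 genes over the ages at which each was listed. Ptgds and Htra1 were not listed at E11 and Agt was not listed at E13, so their full spans are not known.

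Ptgds (chr2:25466709-25470046, minus strand), the lipocalin that makes prostaglandin D2 and also carries small lipophilic molecules, did not follow that course. It was not listed at E11, and measured 21.2, 15.0, 10.8, 18.9 and 24.5 units at E13 and 5.31, 6.08, 4.24, 2.06 and 2.36 units at E18. The P70 libraries ran from 105 to 294 units with a median of 201. All E18 libraries lay below all E13 libraries, and all P70 libraries lay above both. These E18 values rest on 16, 23, 17, 7 and 8 reads, so single E18 values are coarse. The log2 difference was -1.96 ± 0.30 (SE) for E18 against E13 and 5.32 ± 0.28 for P70 against E18. Meningeal fibroblasts and choroid plexus are known sources of Ptgds. Of 12 fibroblast and meninges markers 8 were listed at E13, 5 at E18 and 4 at P70, with sums of 15.1 to 89.5, 22.1 to 49.7 and 5.98 to 12.2 units at these ages. Dcn, Pdgfra and Igf2 were listed at E18 and not at P70, Slc6a13 and Foxc1 at P70 and not at E18 (1.17 ± 1.54 and 2.83 ± 1.55 units, SD, n = 6), and Col1a1, Col3a1 and Lum at neither. Of 12 choroid plexus markers 3 were listed at E13, 6 at E18 and 7 at P70, with sums of 208 to 399.5, 66.3 to 133 and 264 to 389 units at these ages. The 3 at E13 were Otx2, which is a floor plate marker as well, at 186 ± 49.8 units, Folr1 at 117 ± 44.5 and Steap1 at 11.1 ± 5.21. At E18 Otx2 averaged 38.1 ± 9.57 units and Folr1 53.6 ± 19.3 units (SD, n = 5 each), and Ttr was listed at neither age. Most of the P70 sum was Folr1, at 259 ± 41.1 units (SD, n = 6), while Ttr was at 14.5 ± 26.8 units, with 0 units in its lowest library, and Kl, Aqp1, Slc4a5, Prlr and F5 were not listed. The part of these cells in the Ptgds level was not tested.

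Next come a hormone precursor and an enzyme of peptide processing. Agt (chr8:124556534-124569706, minus strand) encodes angiotensinogen, the precursor from which renin cuts angiotensin, and astrocytes are its main source in the brain. It was barely listed at E11, with 1.87, 1.27, 1.03 and 0.244 units from 16, 12, 10 and 2 reads, and it was not listed at E13. At E18 it measured 37.0, 26.6, 18.2, 17.9 and 17.4 units, and at P70 97.6 to 210.5 units with a median of 161. All P70 libraries stood above all E18 libraries, with a log2 difference of 2.75 ± 0.25 (SE). The P70 mean of 161 ± 41.6 units (SD, n = 6) was 6.87 times the E18 mean of 23.4 ± 8.50 units (SD, n = 5). The promoter of Agt printed above is the poorest in CG pairs of those matched.

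Cpe (chr8:64592542-64693054, minus strand) encodes carboxypeptidase E, which trims basic residues from the ends of peptide hormones in secretory granules and is made by neurons and endocrine cells as well as glia. It measured 119.6, 166, 232 and 307 units at E11, then 777, 607, 746, 825 and 709 units at E13. The E18 libraries held 1977, 2183, 1499, 1905 and 1935 units, and the P70 libraries ran from 1369.7 to 1646 units with a median of 1534. Its E11, E13 and E18 ranges were apart, and its P70 range overlapped that of E18. On the log2 scale the difference was 1.90 ± 0.19 (SE) for E13 against E11, 1.37 ± 0.18 for E18 against E13 and -0.33 ± 0.17 for P70 against E18. Of 14 neuron markers 12, 13, 14 and 13 were listed at E11, E13, E18 and P70, with sums of 329 to 884, 956 to 3153, 807 to 2128 and 410.4 to 717 units. Their part in the Cpe level was not tested. In the E11 libraries the neuron sums were 329, 497, 573 and 884 units, in the same order as Cpe, while at E13 replicate 2 had the highest neuron sum, 3153 units, and the lowest Cpe, 607 units.

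**Figure D1:**
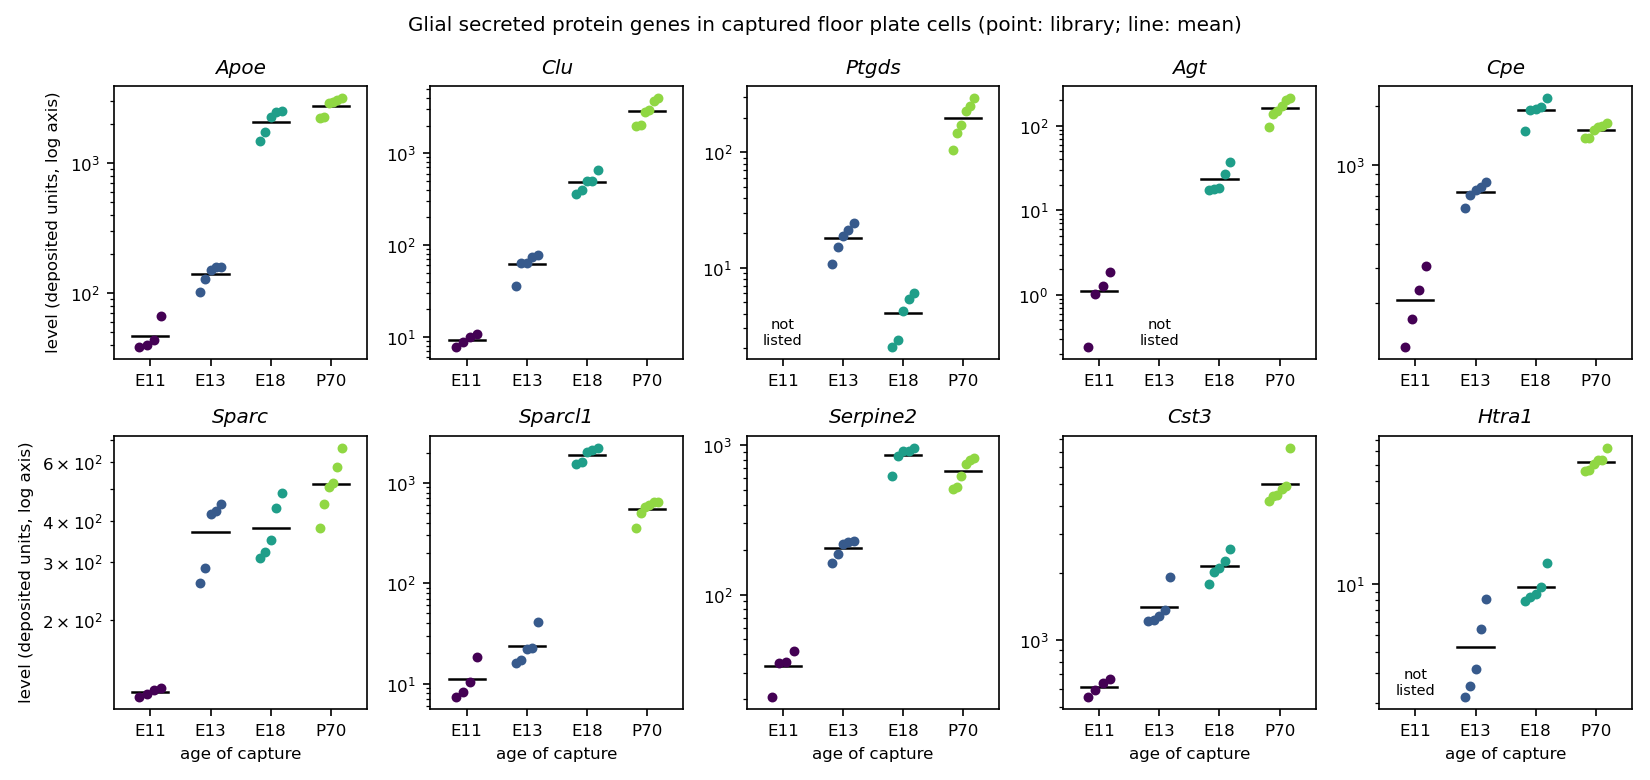
Level of each of the 10 genes (deposited units, log axis, own scale per panel) at E11, E13, E18 and P70, 1 point per library and a line at the mean. Clu is higher at each later age without overlap between neighbouring ages, Sparcl1 is highest at E18 (mean 1905 units), and Ptgds is lowest, among the ages at which it is listed, at E18 (mean 4.01 units).

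The SPARC family pair follows. Sparc (chr11:55394500-55423183, minus strand) encodes a matrix protein that binds collagen and alters the adhesion of cells. It measured 118, 125, 123 and 119.8 units at E11, a coefficient of variation of 2.69%, and 427, 259, 420.3, 288 and 449 units at E13. Its E18 libraries held 487, 323, 309, 438 and 351 units, and its P70 libraries 380.5 to 662 units with a median of 512. E13 stood apart above E11, while the ranges of E13, E18 and P70 overlapped. The log2 difference was 1.56 ± 0.19 (SE) for E13 against E11, 0.06 ± 0.18 for E18 against E13 and 0.44 ± 0.17 for P70 against E18. Sparc is also made by endothelial cells. Of 15 endothelial and mural markers 13, 11, 10 and 9 were listed at E11, E13, E18 and P70, with sums of 291 to 738, 124 to 167, 94.2 to 146 and 47.1 to 135 units. Most of the E11 sum was Vtn, at 377 ± 193 units (SD, n = 4), which averaged 41.6 ± 18.6 units at E13 (SD, n = 5). Of the 10 markers tested for E13 against E11, 0 were called higher and 3 lower, beside 9.44% and 11.5% of all genes. Cldn5 averaged 14.8 ± 2.21 units at E11 and 31.2 ± 6.20 units at E13. Pecam1 averaged 6.62 ± 1.69 and 3.715 ± 1.12 units, and Egfl7 30.9 ± 1.84 and 18.6 ± 4.32 units, at these 2 ages. Flt1, Tek and Tie1 were listed at E11 and not at E13, and Rgs5 at E13 and not at E11. The part of endothelial and mural cells in the Sparc level was not tested.

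Sparcl1 (chr5:104079111-104113733, minus strand) encodes hevin, the astrocyte protein that bridges neurexins and neuroligins at forming synapses and that SPARC is known to counteract. It measured 8.29, 18.4, 10.4 and 7.40 units at E11 and 40.8, 21.9, 22.8, 16.1 and 17.0 units at E13. At E18 its libraries held 2212, 2046, 1538, 2104 and 1626 units, and at P70 they held 358 to 644 units with a median of 585. The E11 and E13 ranges overlapped, all E18 libraries lay above all E13 libraries, and all P70 libraries lay below all E18 libraries. On the log2 scale the difference was 1.03 ± 0.25 (SE) for E13 against E11, 6.33 ± 0.24 for E18 against E13 and -1.79 ± 0.23 for P70 against E18. The difference for E18 against E13 was the largest of the 10 genes at any step, with an E18 mean of 1905 ± 303 units and an E13 mean of 23.7 ± 9.99 units (SD, n = 5 each), a ratio of 80.4. Sparcl1 overlaps the antisense gene Gm26703 (chr5:104109217-104119687, plus strand) in the annotation, and since the library protocol does not mark strand, reads from the stretch they share cannot be assigned to one of them.

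Within a library the ratio of Sparcl1 to Sparc is free of the library's depth. It was 0.0618 to 0.147 in E11 libraries, 0.0378 to 0.0954 in E13, 4.55 to 6.34 in E18 and 0.689 to 1.69 in P70 libraries. Sparc was thus the higher of the pair in every E11 and E13 library, and Sparcl1 in every E18 library, while the P70 libraries lay on both sides of a ratio of 1. The ratio of Clu to Apoe was 0.117 to 0.277 in E11 libraries, 0.237 to 0.619 in E13, 0.204 to 0.265 in E18 and 0.651 to 1.63 in P70 libraries. Here Apoe was higher in every library up to E18, and the P70 libraries again spread to both sides of 1. Cst3 exceeded Apoe 8.95 to 17.2 times at E11 and 7.72 to 13.5 times at E13, and its ratio to Apoe was 0.809 to 1.42 at E18 and 1.41 to 2.37 at P70.

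**Figure D2:**
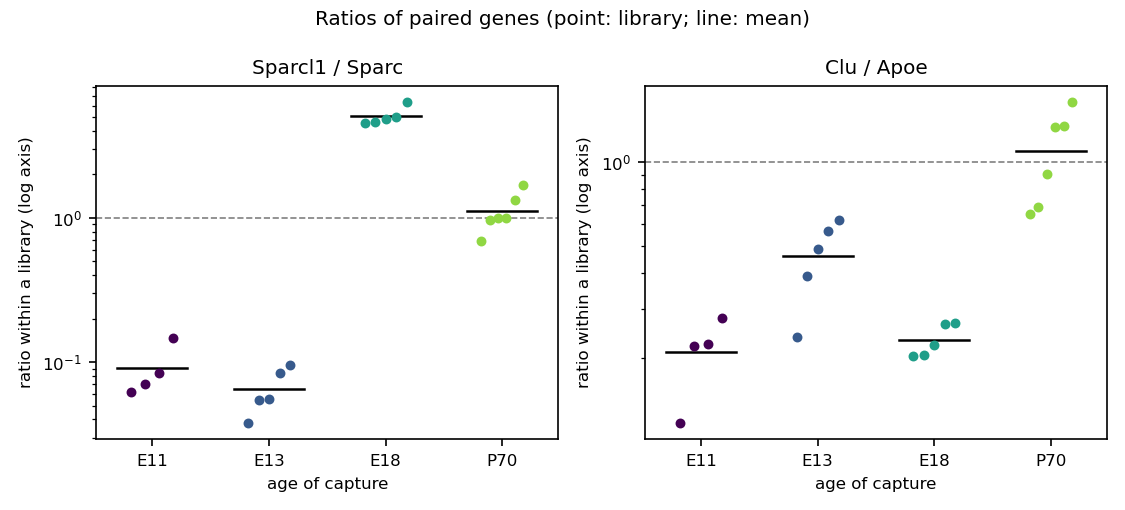
Ratio of Sparcl1 to Sparc (left) and of Clu to Apoe (right) within each captured library (log axis), 1 point per library and a line at the mean, with a dashed line at a ratio of 1. The Sparcl1 to Sparc ratio lies between 4.55 and 6.34 in the E18 libraries and at 0.147 or less in those of E11 and E13.

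The proteases and inhibitors come last. Serpine2 (chr1:79794197-79861180, minus strand) encodes protease nexin 1, the glial serpin that blocks thrombin and plasminogen activators. It measured 41.8, 34.6, 20.7 and 35.3 units at E11 and 217, 163, 226, 229 and 188 units at E13. At E18 it measured 923, 956, 849, 922 and 627 units, and at P70 507 to 822 units with a median of 685. E11, E13 and E18 were apart from each other, and P70 overlapped E18. The log2 difference was 2.62 ± 0.20 (SE) for E13 against E11, 2.05 ± 0.18 for E18 against E13 and -0.36 ± 0.18 for P70 against E18. Its promoter, printed above, was the richest in CG pairs of those matched.

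Cst3 (chr2:148871722-148875692, minus strand), cystatin C, blocks cysteine proteases such as cathepsins B and L and is also made by microglia. It measured 665, 593, 556 and 642 units at E11, then 1927, 1214, 1285, 1236 and 1369 units at E13. The E18 libraries held 2019, 2568, 2112, 2265 and 1791 units, and the P70 libraries ran from 4192 to 7268 units with a median of 4627. E13 stood above E11 and P70 above E18 without overlap, and E18 overlapped E13 only through E13 replicate 1, at 1927 units. On the log2 scale the difference was 1.17 ± 0.16 (SE) for E13 against E11, 0.63 ± 0.15 for E18 against E13 and 1.203 ± 0.15 for P70 against E18. E13 replicate 1 also had the highest microglia and macrophage sum of its age, 393 units, and the highest fibroblast and meninges sum, 89.5 units, against 15.1 to 37.7 units in the other E13 libraries. E18 replicate 5 had the highest microglia and macrophage sum of its age, 616 units, and the lowest Cst3, 1791 units. The part of these cells in the Cst3 level was not tested.

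Htra1 (chr7:130936111-130985660, plus strand) encodes a secreted serine protease that cuts matrix proteins and dampens transforming growth factor beta signalling. It was not listed at E11 and measured 2.53, 3.16, 2.18, 5.41 and 8.14 units at E13, from 26, 38, 24, 45 and 64 reads. The E18 libraries held 13.2, 8.35, 9.65, 8.70 and 7.91 units, and the P70 libraries ran from 45.9 to 62.6 units with a median of 52.0. The E13 and E18 ranges overlapped, and all P70 libraries lay above all E18 libraries. The log2 difference was 1.10 ± 0.25 (SE) for E18 against E13 and 2.35 ± 0.24 for P70 against E18. The annotated gene Fgfr2 on the other strand (chr7:130162451-133123350) spans Htra1, the libraries do not mark strand, and how far reads of the pair fall together was not tested.

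Side by side, Cst3 had the highest mean of the 10 at every age and stood at rank 163 of 12221 listed genes at E11. Its rank was 51 of 12381 at E13, then 16 of 13340 at E18, and 8 of 13291 at P70. At E11 Cpe and Sparc followed, with overlapping ranges, then Apoe and Serpine2, again overlapping, then Sparcl1 and Clu, and last Agt. At E13 the order from Cst3 down ran Cpe, Sparc, Serpine2, Apoe and Clu with no overlap between neighbours, and only Clu with Sparcl1 and Sparcl1 with Ptgds overlapped below that. At E18 Cst3, Apoe, Sparcl1 and Cpe had means of 1899.9 to 2151 units with overlapping ranges, and stood at ranks 16, 18, 20 and 21. At P70 Clu and Apoe followed Cst3 at ranks 16 and 19 with overlapping ranges, and Htra1 was lowest at 52.2 ± 6.01 units (SD, n = 6). The 10 genes held 0.149% to 0.170% of all summed units in E11 libraries and 0.360% to 0.509% in E13 libraries. The share was 1.37% to 1.87% in E18 and 1.92% to 2.18% in P70 libraries.

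Libraries of an age did not rank alike for all 10 genes. At P70, replicate 5 had the highest Ptgds (294 units) and Sparcl1 (644 units) and the lowest Agt (97.6 units), Sparc (380.5 units), Cst3 (4192 units) and Htra1 (45.9 units) of the 6. P70 replicate 3 had the highest Agt, 210.5 units, with the lowest Sparcl1, 358 units. At E18, replicate 1 was highest for 6 of the 10 genes and replicate 5 lowest for 5, and their astrocyte sums were 1987 and 1401 units with neuron sums of 807 and 2055 units. The part of these sums in the spread between libraries was not tested.

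Across all genes listed at both ages, limma called 2421 of 11567 (20.9%) for E13 against E11, 5592 of 11797 (47.4%) for E18 against E13 and 5042 of 12353 (40.8%) for P70 against E18, at an adjusted p under 0.05. In the spheres edgeR called 3818 of 12886 (29.6%) for MB against FB. Of the 10 genes, 7 were listed at E13 and E11, and all 7 were past the threshold and higher at E13, where 9.44% of all genes were called higher. For 6 of these 7 the ranges were apart with E13 above, all but Sparcl1, as they were for 11.2% of all genes. Of the 9 listed at E18 and E13, 7 were called higher and Ptgds lower, with 22.4% of all genes higher and 25% lower, and Sparc was not called. Of the 10 tested for P70 against E18, 6 were called higher (Clu, Ptgds, Agt, Sparc, Cst3 and Htra1) and Sparcl1 lower, with 16.9% of all genes higher and 24% lower. The P70 range stood apart above E18 for 5 genes and below it for Sparcl1, beside 9.28% and 11.7% of all genes. The genes were chosen on these levels, so nothing is read from the counts against these shares. The median log2 difference of the genes tested was 1.57 for E13 against E11, 1.37 for E18 against E13 and 0.82 for P70 against E18, beside -0.04, -0.04 and -0.14 over all genes. The shift of -0.14 for P70 against E18 became 0.01 when the values were rescaled by median ratios, and the higher share of all calls was then 54.6%, against 41.3% without rescaling. With that rescaling Apoe also passed for P70 against E18, at a log2 difference of 0.59, and the directions of the other 9 genes kept their sign. The call of Sparc for P70 against E18 was lost when any 1 of 7 libraries was left out (E18 replicates 2, 3 and 5, P70 replicates 1 to 4), with a log2 difference of 0.36 to 0.44 in those fits.

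**Figure D3:**
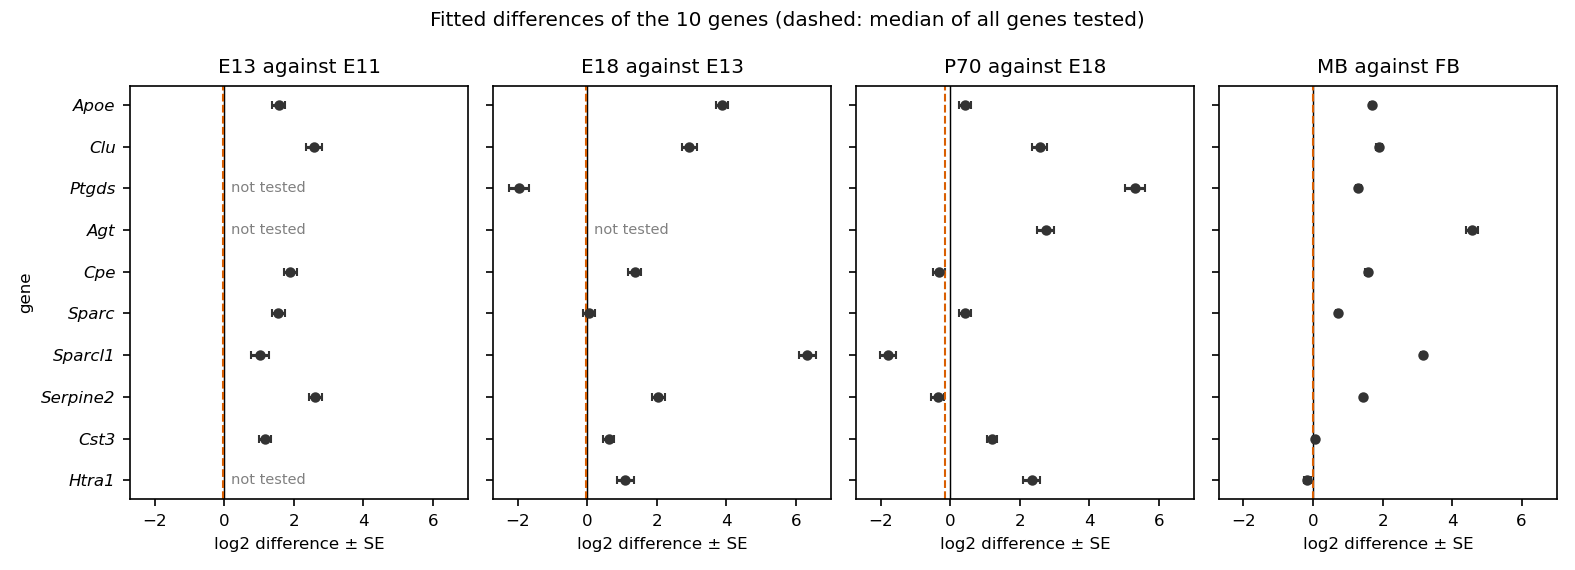
Fitted log2 differences (± SE) of the 10 genes for E13 against E11, E18 against E13, P70 against E18 (limma, log2 of units + 1) and MB against FB (edgeR), with a solid line at 0 and a dashed line at the median of all genes tested. Sparcl1 has the largest difference for E18 against E13 (6.33), Ptgds for P70 against E18 (5.32) and Agt for MB against FB (4.58).

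In the adult spheres, 8 of the 10 genes were higher in MB than in FB. Values are counts scaled to a common library size (CPM) after scaling by trimmed mean of M-values (TMM), and they are not per length, so they are compared between groups and not between genes. Agt measured 204, 209.7, 185, 192 and 248 CPM in MB spheres, against 6.62, 6.18, 13.95, 7.20 and 8.85 CPM in FB spheres. Every MB library was above every FB library, with a log2 difference of 4.58 ± 0.16 (SE), the largest of the 10. Sparcl1 measured 1762, 1738, 1619.7, 1637 and 1656 CPM in MB spheres, against 203, 182, 188, 196 and 171 CPM in FB spheres. Its ranges were likewise apart, with a log2 difference of 3.16 ± 0.05.

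Among the carriers, Apoe measured 3627, 3779.7, 3442, 3682 and 3689.8 CPM in MB spheres, against 1205, 1176, 1148, 1070.3 and 1056 CPM in FB spheres (log2 difference 1.69 ± 0.04, SE). Clu averaged 275 ± 11.7 CPM in MB spheres and 74.2 ± 10.4 CPM in FB spheres (SD, n = 5 each, log2 difference 1.89 ± 0.09). Ptgds averaged 209 ± 2.51 CPM in MB spheres and 84.9 ± 5.40 CPM in FB spheres (SD, n = 5 each, log2 difference 1.30 ± 0.07). All 3 carriers were thus higher in MB with ranges apart. Cpe averaged 1397 ± 179 CPM in MB spheres and 471 ± 17.7 CPM in FB spheres (SD, n = 5 each, log2 difference 1.57 ± 0.07). Serpine2 averaged 6381 ± 151 CPM in MB spheres and 2352 ± 88.6 CPM in FB spheres (log2 difference 1.44 ± 0.04), and Sparc averaged 507 ± 12.3 CPM in MB spheres and 306 ± 19.6 CPM in FB spheres (log2 difference 0.73 ± 0.05; SD, n = 5 each). The ranges of these genes were also apart, with MB above FB.

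Cst3 and Htra1 stood aside. Cst3 measured 371, 390.1, 388, 372 and 389 CPM in MB spheres, against 398, 366, 348, 372 and 349.9 CPM in FB spheres, and Htra1 133, 118, 159, 111 and 151 CPM in MB spheres, against 158, 184, 142, 141 and 128 CPM in FB spheres. Both ranges overlapped, neither gene was called, and the log2 differences were 0.06 ± 0.05 and -0.16 ± 0.11 (SE). In all, 8 of 10 genes were called higher in MB and 0 lower, beside 15.3% and 14.3% of all genes. The same 8 had ranges apart with MB above and 0 had MB below, beside 11.4% and 9.79% of all genes, and from these shares nothing is read since the levels chose the genes. The median log2 difference of the 10 was 1.505, beside -0.02 over all genes. Together they took 1.46% to 1.52% of counts in MB libraries and 0.482% to 0.537% in FB libraries.

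Markers of cell types in the spheres stand beside these values. Floor plate markers summed to 510 to 623 CPM in MB spheres, against 127 to 148 CPM in FB spheres, with 5 of 12 at 1 CPM or more in each and Lmx1a, Foxa1, Foxa2, Shh and Corin below 1 CPM in both. Most of that sum was Spon1, at 475 ± 45.1 CPM in MB and 92.7 ± 9.06 CPM in FB (SD, n = 5 each). The astrocyte markers summed to 5276 to 5553 CPM in MB spheres, against 5190.0 to 5599 CPM in FB spheres, with 14 of 15 at 1 CPM or more in each. Within that list S100b was higher in MB, at 138 ± 4.86 CPM against 25.4 ± 7.17 CPM in FB, and Gfap lower, at 52.6 ± 6.71 CPM in MB against 133 ± 13.3 CPM in FB (SD, n = 5 each). Oligodendrocyte markers summed to 2988 to 3667 CPM in MB spheres, against 3788 to 4239 CPM in FB spheres, with 12 and 13 of 13 at 1 CPM or more. Ependymal and motile cilia markers summed to 40.8 to 61.9 CPM in MB spheres, against 23.9 to 31.0 CPM in FB spheres, with 9 and 7 of 16 at 1 CPM or more and Tmem212, Ccdc153, Pifo, Dnah5, Dnah9, Ak7 and Fam183b below 1 CPM in both. The part of these cells in the differences was not tested. C1qa, C1qb, C1qc, Cx3cr1 and Csf1r, which define microglia, were below 1 CPM in both kinds, with a list sum of 78.7 to 99.6 CPM in MB and 29.5 to 45.3 CPM in FB.

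**Figure D4:**
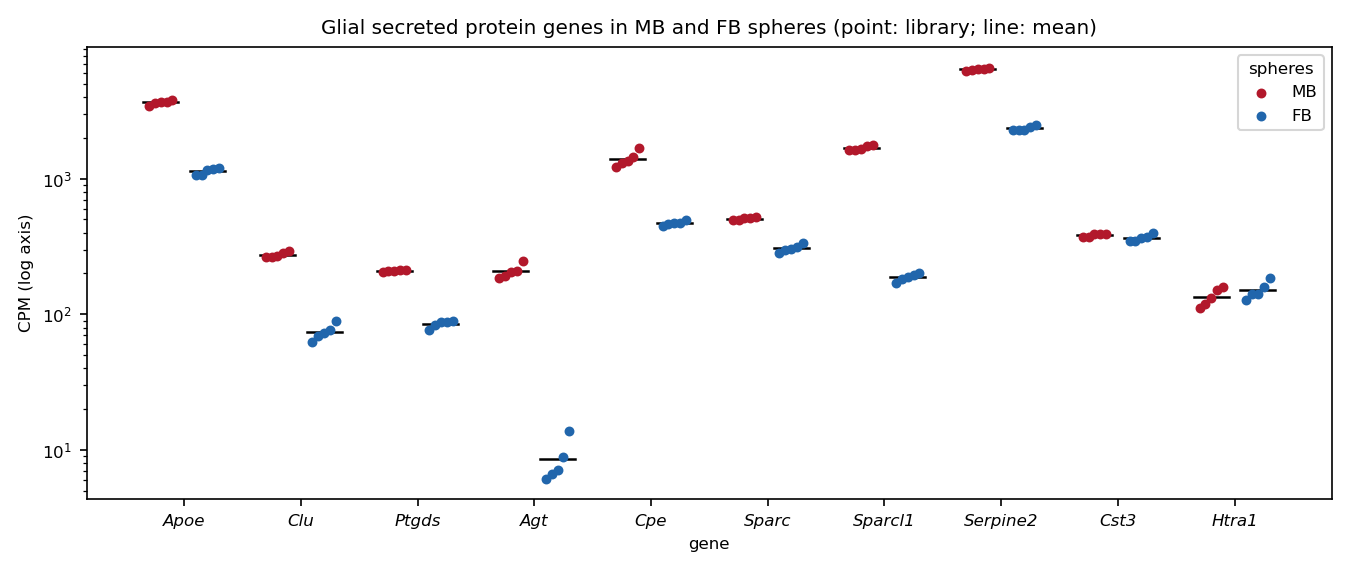
Level of each of the 10 genes (CPM after TMM scaling, log axis) in 5 MB and 5 FB sphere libraries, 1 point per library and a line at the mean. MB lies above FB without overlap for 8 genes, most widely for Agt (185 to 248 CPM in MB, 6.18 to 13.95 CPM in FB), and Cst3 and Htra1 overlap.

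The partner genes of each protein were taken as lists from their known roles, with earlier results of these data known. They are described by counts of genes past the threshold and by their median log2 difference, which is set beside that of all genes given above. The share of all genes called higher and lower was 9.44% and 11.5% for E13 against E11, 22.4% and 25% for E18 against E13, 16.9% and 24% for P70 against E18, and 15.3% and 14.3% for MB against FB. The lists as such were not tested, so nothing is read about a list from its count. Of 19 lipoprotein receptor and lipid transfer genes tested for E18 against E13, 11 rose and 2 fell, with a median of 0.94. The phospholipid transfer protein Pltp rose to 245 ± 54.7 units at E18, against 33.9 ± 19.1 units at E13 (log2 difference 2.95 ± 0.28, SE, limma adjusted p = 2.1e-08). The lipocalin carrier Apod fell to 2.86 ± 0.527 units at E18, against 33.7 ± 3.88 units at E13 (log2 difference -3.17 ± 0.28, adjusted p = 8.5e-09; SD, n = 5 each). For E13 against E11 5 of 19 rose and 3 fell (median -0.03). For P70 against E18 8 of 19 rose and 3 fell (median 0.14), and the sorting receptor Sorl1 rose to 22.6 ± 3.88 units at P70 (n = 6), against 4.27 ± 1.40 units at E18 (n = 5; limma adjusted p = 6.9e-08). In the spheres 7 of 18 were higher in MB and 2 lower (median 0.50). The cholesterol exporters that load lipid onto Apoe particles were among the 7: Abca1 averaged 100.05 ± 11.6 CPM in MB and 8.97 ± 2.88 CPM in FB (log2 difference 3.47 ± 0.17, edgeR adjusted p = 6.3e-12), and Abcg1 47.8 ± 5.17 CPM in MB and 3.89 ± 1.47 CPM in FB (3.61 ± 0.23, adjusted p = 3.3e-10; SD, n = 5 each).

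Around Agt, the renin angiotensin list had 10 of 16 genes in the captured table and few were tested. Of the genes tested, 2 of 6 rose for E13 against E11 and 0 fell (median 0.32), 2 of 7 rose and 2 fell for E18 against E13 (0.31), and 1 of 7 rose and 2 fell for P70 against E18 (0.10). Agtrap, which binds the type 1 angiotensin receptor, rose to 20.7 ± 2.57 units at E18, against 5.71 ± 1.57 units at E13 (limma adjusted p = 3.8e-07; SD, n = 5 each). Renin itself, as Ren1, was listed at E18 and not at P70 or E13, and the receptor gene Agtr1a was listed at P70 and not at E18. In the spheres 4 of 7 were higher in MB and 1 lower (median 0.36), with the lysosomal protease Ctsd at 1138 ± 71.2 CPM in MB and 749 ± 40.7 CPM in FB (edgeR adjusted p = 3.2e-08; SD, n = 5 each).

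Around Cpe, 4 of 14 peptide hormone processing and granule genes rose for E13 against E11 and 1 fell (median 0.88), and 9 of 15 rose for E18 against E13 and 0 fell (median 1.59). The opioid precursor Pdyn rose to 289 ± 115 units at E18, against 1.341 ± 1.15 units at E13 (log2 difference 7.004 ± 0.47, SE, limma adjusted p = 6.4e-10; SD, n = 5 each). For P70 against E18 4 of 18 rose and 4 fell (median 0.18), and the granule protein Scg3 fell to 97.0 ± 26.8 units at P70 (n = 6), against 245 ± 32.4 units at E18 (n = 5; limma adjusted p = 0.00015). In the spheres 4 of 13 were higher in MB and 1 lower (median 0.05).

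Around Sparc and Sparcl1, the calls of the matricellular list differed in direction between the steps. Of 12 matricellular genes tested for E13 against E11, 0 rose and 2 fell (median 0.04), and of 15 tested for E18 against E13, 10 rose and 1 fell (median 1.08). Of 14 tested for P70 against E18, 1 rose and 9 fell (median -1.06). The SPARC relative Smoc1 rose to 85.5 ± 5.52 units at E18, against 6.46 ± 4.59 units at E13 (log2 difference 3.70 ± 0.29, SE, limma adjusted p = 7.0e-09; SD, n = 5 each), and Fstl1, another relative, fell to 24.4 ± 11.7 units at E18, against 183 ± 41.5 units at E13 (-2.99 ± 0.36, adjusted p = 6.4e-07). Osteopontin, Spp1, fell to 1.06 ± 1.48 units at P70 (n = 6), against 407 ± 227 units at E18 (n = 5), a log2 difference of -7.24 ± 0.70 (SE, limma adjusted p = 6.9e-08). In the spheres 7 of 18 were higher in MB and 5 lower (median 0.07). Tenascin C, Tnc, a matrix protein of neural stem cells, was lower in MB, at 277 ± 19.3 CPM, than in FB, at 864 ± 37.0 CPM (log2 difference -1.64 ± 0.06, edgeR adjusted p = 3.6e-14; SD, n = 5 each).

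Around Serpine2, the serine proteases and serpins moved both ways at each step: 2 of 13 rose and 3 fell for E13 against E11 (median 0.11), 1 rose and 3 fell of 13 for E18 against E13 (0.00), 4 rose and 3 fell of 13 for P70 against E18 (0.08), and 2 of 16 were higher and 4 lower in MB (0.15). The thrombin receptor F2r fell to 24.4 ± 8.05 units at E18, against 64.2 ± 12.1 units at E13 (log2 difference -1.41 ± 0.25, SE, limma adjusted p = 8.6e-05; SD, n = 5 each). Thrombomodulin, Thbd, was lower in MB, at 0.472 ± 0.561 CPM, than in FB, at 36.1 ± 7.56 CPM (edgeR adjusted p = 1.4e-09; SD, n = 5 each). Around Cst3, 4 of 13 cysteine proteases and cystatins rose for E13 against E11 and 0 fell (median 0.26), 7 of 13 rose and 0 fell for E18 against E13 (0.63), and 4 of 14 rose and 3 fell for P70 against E18 (-0.15). In the spheres 11 of 15 were higher in MB and 0 lower (median 0.70). Cathepsin H, Ctsh, rose to 66.8 ± 16.6 units at E18, against 6.15 ± 2.53 units at E13 (log2 difference 3.28 ± 0.21, limma adjusted p = 4.6e-11; SD, n = 5 each). Cathepsin B, Ctsb, a target of cystatin C, averaged 539 ± 13.4 CPM in MB and 306 ± 24.2 CPM in FB (log2 difference 0.82 ± 0.06, edgeR adjusted p = 1.7e-09), beside the overlapping Cst3 values of the same libraries.

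Around Ptgds, the prostaglandin and lipocalin list was called as follows: 0 rose and 1 fell of 10 for E13 against E11 (median -0.30), 1 rose and 2 fell of 7 for E18 against E13 (-0.12), 1 rose and 0 fell of 7 for P70 against E18 (0.04), and 1 of 8 was higher and 4 lower in MB (-0.07). Around Htra1, 3 of 14 substrates and transforming growth factor beta genes rose and 3 fell for E13 against E11 (median -0.56), 2 of 14 rose and 7 fell for E18 against E13 (-0.61), 2 of 10 rose and 3 fell for P70 against E18 (-0.15), and 4 of 15 were higher and 3 lower in MB (0.23). Fibronectin, Fn1, a matrix protein that HtrA1 cuts, fell to 3.23 ± 1.39 units at E18, against 15.99 ± 3.12 units at E13 (log2 difference -2.06 ± 0.25, SE, limma adjusted p = 7.1e-07; SD, n = 5 each), and was higher in MB spheres, at 93.6 ± 13.7 CPM, than in FB spheres, at 29.0 ± 6.15 CPM (edgeR adjusted p = 1.8e-08).

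A list of 29 other secreted proteins of glia stood beside the 10. Of those tested, 7 of 21 rose and 6 fell for E13 against E11 (median -0.21), 12 of 24 rose and 5 fell for E18 against E13 (0.85), 9 of 25 rose and 10 fell for P70 against E18 (-0.56), and 15 of 27 were higher and 4 lower in MB (0.48). Mfge8, which bridges dying cells to phagocytes, rose to 293 ± 85.7 units at E18, against 37.6 ± 10.9 units at E13 (limma adjusted p = 3.4e-09; SD, n = 5 each), and fell to 33.9 ± 11.6 units at P70 (n = 6; log2 difference -3.08 ± 0.24, SE, for P70 against E18, adjusted p = 2.8e-09). The receptor ligand Gas6 rose to 46.4 ± 15.7 units at E18, against 2.06 ± 0.998 units at E13 (limma adjusted p = 4.9e-11; SD, n = 5 each). The proteoglycan Cspg5 was higher in MB spheres, at 218 ± 37.6 CPM, than in FB spheres, at 65.0 ± 10.6 CPM (edgeR adjusted p = 7.7e-10; SD, n = 5 each).

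**Figure D5:**
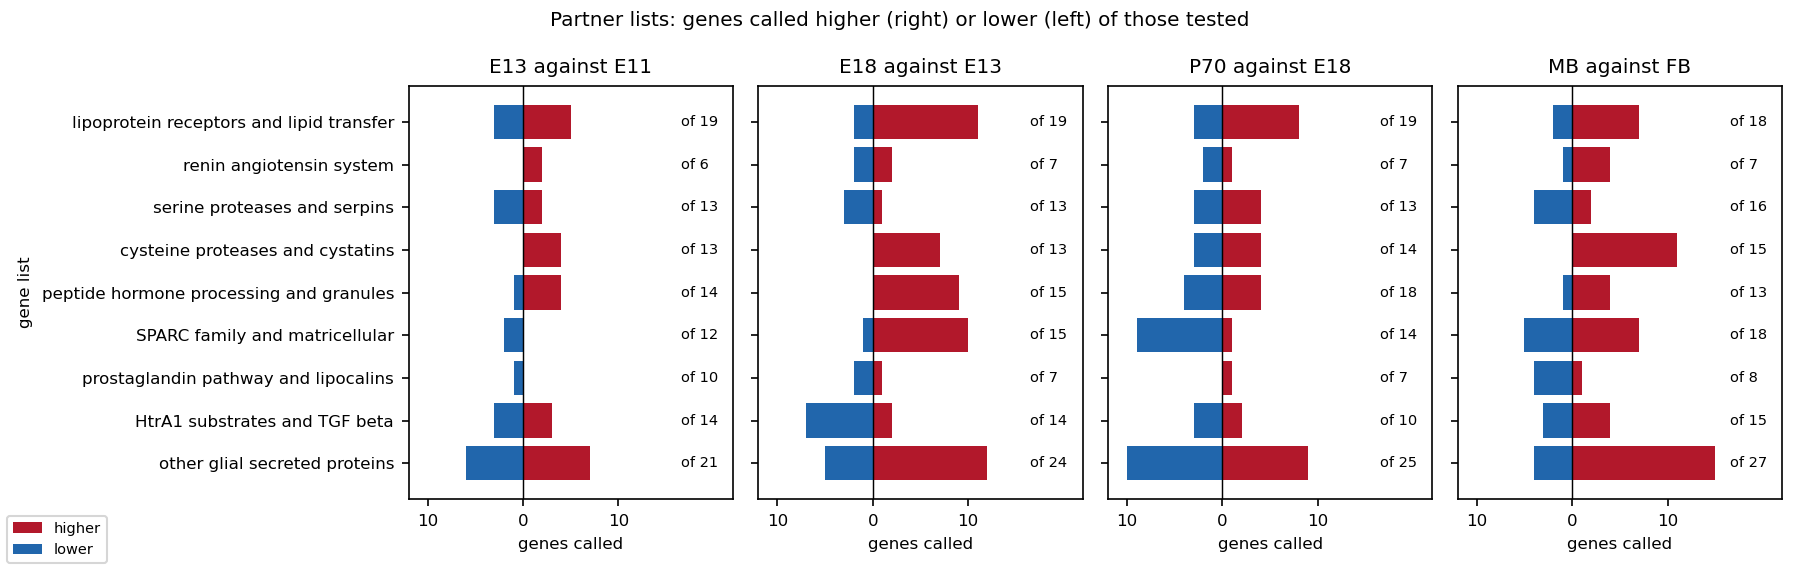
Number of genes of each partner list called higher (red, to the right) or lower (blue, to the left) at an adjusted p under 0.05 in the 4 comparisons, with the number tested at the right edge of each panel. The matricellular list has 10 higher and 1 lower of 15 for E18 against E13 and 1 higher and 9 lower of 14 for P70 against E18.

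For the 7 of the 10 genes that were listed at all 4 ages, the genes most alike in course were sought among 9876 genes by the root mean square distance of their 4 age means on the log2 scale, centred per gene. The points are 4 age means from shared libraries, so a small distance is a likeness of course and nothing more. Nearest to Apoe were Arhgdig, at a distance of 0.14, and Nme5, at 0.20, and nearest to Clu were Lrrc48, at 0.45, and Ppil6, at 0.59. Nme5 averaged 13.2, 30.7, 391 and 763 units at E11, E13, E18 and P70, and Ppil6 1.23, 4.42, 57.6 and 179 units. Nearest to Sparcl1 were Tnnt3, at 0.47, and Sfxn5, at 0.53, and Tnnt3 shared the high E18 level, with 2.02, 1.67, 241 and 68.3 units at the 4 ages. Sparc had the closest match, Tob1 at 0.06, followed by S100a16 at 0.08. Cpe was closest to Gpr123 (0.10) and Cend1 (0.10), Serpine2 to Dusp26 (0.17) and the granule gene Scg2 (0.21), and Cst3 to Scaf1 (0.09) and 4930444P10Rik (0.09).

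Sox9 averaged 56.5 ± 15.7, 106 ± 37.9, 156 ± 62.7 and 416 ± 112 units at E11, E13, E18 and P70. Nfia averaged 5.51 ± 2.63, 49.4 ± 25.7, 133 ± 38.4 and 96.4 ± 27.6 units, and Nfib 4.18 ± 0.876, 46.5 ± 14.9, 37.2 ± 9.38 and 15.7 ± 4.99 units. Nfic averaged 1.48 ± 0.186, 1.42 ± 0.104, 4.81 ± 1.65 and 24.3 ± 9.02 units at the 4 ages (SD, n = 4, 5, 5 and 6). Nfix was not listed at E11 and averaged 11.1 ± 3.55, 26.4 ± 14.1 and 62.6 ± 13.4 units at the later ages. In the spheres Sox9 averaged 194 ± 18.5 CPM in MB and 294 ± 14.7 CPM in FB, and Nfib 217 ± 5.54 CPM in MB and 272 ± 22.9 CPM in FB (SD, n = 5 each), both lower in MB (log2 differences -0.60 and -0.33, edgeR adjusted p = 1.5e-06 and 0.00054). Nfic averaged 21.6 ± 1.81 CPM in MB and 10.9 ± 2.12 CPM in FB, and Nfix 125 ± 16.03 CPM in MB and 95.01 ± 5.81 CPM in FB, both higher in MB (log2 differences 0.97 and 0.40, edgeR adjusted p = 0.00057 and 0.0023). Nfia averaged 296 ± 44.7 CPM in MB and 284 ± 34.9 CPM in FB, with an edgeR adjusted p of 0.69.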

How the data were processed

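Polyadenylated RNA was amplified by Smart-seq2 and cut with Tn5, per the labels' protocols, which marks neither strand nor molecules. The submitters' processing notes name STAR 2.3, Salmon 1.6.0, DESeq2 1.34.0, mm10 and GRCm39, without saying which file each made. The captured values were deposited as a normalized score of unstated unit ("units"), and the sphere values were deposited as raw counts per gene. Low steps of the captured values gave whole reads, within 0.01 reads, for 11297 of 14997 captured genes (75.3%). Of 15139 lines, 142 that carry 11 repeated symbols were left out.

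The 10 genes and all lists were chosen with earlier results of these data known. Captured ages were compared with limma 3.58.1 (R 4.3.3) on log2(units + 1), with a trend, all 20 libraries in 1 fit, over genes listed at both ages. Spheres were compared with edgeR 4.0.16 (quasi-likelihood, TMM, filterByExpr), and the SE is the log2 difference over the root of F. Tests were two-sided, with Benjamini-Hochberg adjustment over all genes and a threshold of 0.05. A fold change on the log2(units + 1) scale understates that of low genes. The partner genes named are taken from the 2 leading genes of each list and comparison past the threshold, where a group mean reached 5 units (captured) or 10 CPM (spheres). S100b, Slc1a3, Gfap, Ntn1, Otx2, Spon1, Cldn5, Pecam1, Egfl7, Pf4 and the library extremes were picked after their values were seen. Scripts were tested on simulated data for E13 against E11, E18 against E13, P70 against E18 and MB against FB. In that order, 7.46%, 7.46%, 20.9% and 62.7% of 1.5-fold changes were recovered, and 46.3%, 43.3%, 55.2% and 94% of 2-fold changes. A gene not called can thus still differ by such folds. Alternatives were other pseudocounts (0.1 and 5), filters, scalings, DESeq2 1.42.0, library weights, a replicate block and leaving out each library. Tables were handled with Python 3.11.15, pandas 2.3.3 and numpy 2.4.6. Protein sequences were not used here. Some genes of the partner lists are not reported here by name.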

Additional observations from a re-analysis of the deposited data

Results flagged for a closer look

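In 3 of 57 groups of 4 to 6 libraries, taken over the 10 genes, 1 library had a gap to the others that passed Dixon's 95% critical value, and chance flags about 1 in 20. Cst3 measured 1927 units in E13 replicate 1, against 1214 to 1369 units in the other E13 libraries. Cst3 measured 7268 units in P70 replicate 6, against 4192 to 4903 units in the other P70 libraries. Sparcl1 measured 40.8 units in E13 replicate 1, against 16.1 to 22.8 units in the other E13 libraries.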

How the results depend on the processing

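Of 195 counts of calls over all settings, 193 stayed within 1.5 times, and 2 did not: the genes called for E13 against E11 were 2421, and 3811 when only the libraries of these ages entered the fit and 4873 with a weight per library. Leaving out 1 library at a time gave 1773 to 2238 genes for E13 against E11, 5045 to 5405 for E18 against E13, 4395 to 5186 for P70 against E18 and 3422 to 3632 for MB against FB. Of the 10 genes, 7, 8 and 8 were called for E13 against E11, E18 against E13 and MB against FB in every setting, and 6 to 8 for P70 against E18. The Sparc difference for E18 against E13, 0.06 on the log2 scale and not called, was -0.026 with a weight per library and -0.057 to 0.14 with 1 library left out, below 0 without E13 replicate 2 (-0.057), E13 replicate 4 (-0.019) or E18 replicate 1 (-0.032). For P70 against E18, Apoe passed without E18 replicate 1 or 4 or P70 replicate 1 or 5 (0.47 to 0.49), Serpine2 passed without E18 replicate 5 (-0.47), and Sparc did not pass with only the libraries of these ages (0.44); the cause was not tested. Same-numbered libraries deviated together by r = -0.15 to 0.27. A low r cannot show whether they share an animal or a day of handling, so pairing by number stays undecided. With a replicate block 2655, 5824, 5004 and 3650 genes were called in the 4 comparisons in the order above. Differences of low genes rest on few reads, as given for Agt, Ptgds and Htra1.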
